A study of Homo sapiens with 18 samples.

Results

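The genes described here are 36 DNA repair genes, a fixed list covering non-homologous end joining, base excision, nucleotide excision and mismatch repair. They were taken by gene symbol and are 36 of the 40916 symbols in the count tables. All 36 had reads in each of the 18 libraries, with at least 9 counts in any library, and all 36 passed the filter on low counts in every comparison. Cells of 2 human lines were studied: MCF10A, a non-tumorigenic breast epithelial line that carried a nuclear GFP-tagged histone H2B, and HCT116, a colorectal carcinoma line used here in a p53-null form. Each line was grown alone, and both were grown together at 50% each. The 3 cultures were left without irradiation (NIR) or given 10 Gy (IR), which gave 6 groups of 3 libraries, described as biological replicates. Poly(A)-selected RNA was sequenced, and the harvest is given as day 2 in the sample titles and as 72 hours after irradiation in the series text. MCF10A was kept in a DMEM and F12 medium with horse serum, EGF, hydrocortisone, cholera toxin and insulin, and HCT116 in McCoy's 5A medium with fetal bovine serum, so line and medium cannot be told apart. Which medium the mixed cultures were grown in is not given. Whether the HCT116 libraries carry the p53-null state was not analysed here.

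Ionizing radiation breaks both DNA strands and damages single bases, and separate pathways deal with each lesion. In classical end joining the Ku heterodimer caps a broken end, DNA-PKcs is recruited to it, Artemis trims the end, and XRCC4, XLF and DNA ligase IV seal the break in any phase of the cell cycle. Base excision repair starts with a glycosylase that cuts out 1 damaged base, nucleotide excision repair removes a stretch of strand around a bulky lesion, and mismatch repair corrects errors left by the replication fork, so that several of its factors are known to be most abundant in dividing cells.

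Library totals ran from 25737818 to 40839835 counts. The 36 genes together took 0.297% to 0.495% of the counts of a library. The line labels were checked with marker lists: 10 basal mammary genes summed to 11874 to 19194 CPM (counts scaled to a library total of 1000000) in MCF10A libraries and to 706 to 1419 CPM in HCT116 libraries, where ITGB4 and CDH3 were also expressed and TP63 and TGFBI had 0 counts without irradiation. Of these 10 genes, 9 were called lower and 1 higher in HCT116 than in MCF10A without irradiation. Of all tested genes 36.1% were called lower and 38.7% higher. After irradiation all 10 were called lower. The 10 intestinal genes summed to only 48.2 to 56.1 CPM in HCT116 libraries and to 16.7 to 30.7 CPM in MCF10A libraries, so they mark HCT116 weakly. Of these 10 genes, CDX2 had 0 counts in all MCF10A libraries, but CDX1 and ASCL2 had 0 counts in HCT116 libraries too, and VIL1, LGR5, CDH17, GPA33 and HNF4A stayed under 1 CPM there. The mixed libraries held 0.399% to 0.503% MCF10A RNA without irradiation and 1.17% to 1.29% after it, by genes found in 1 line only, so nearly all of their RNA was that of HCT116. Replicates of a group differed by more than counting noise. The p-values weigh the difference between groups against the spread between these libraries.

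Irradiation lowered most of these repair genes in MCF10A and split them in HCT116. In MCF10A 23 of the 36 fell and 3 rose at an adjusted p under 0.05, against 29.2% of all tested genes called lower and 26.2% called higher (55.4% in either direction). In HCT116 16 fell and 9 rose, against 27.2% and 25.3% of all genes (52.5% in either direction). In the mixed cultures 16 fell and 9 rose, against 25.4% lower and 24% higher (49.4% in either direction). The median log2 change of the 36 genes, irradiated over non-irradiated, was -0.42 in MCF10A, -0.12 in HCT116 and -0.10 in the mixed cultures, while the median over all tested genes lay within 0.02 of 0 in each. In all 3 cultures 15 of the 36 fell and 3 rose. The remaining 18 differed in their calls between cultures or passed the test in none. With upper-quartile factors in MCF10A the share of higher calls among all called genes went from 47.4% to 57.5%.

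**Figure D1:**
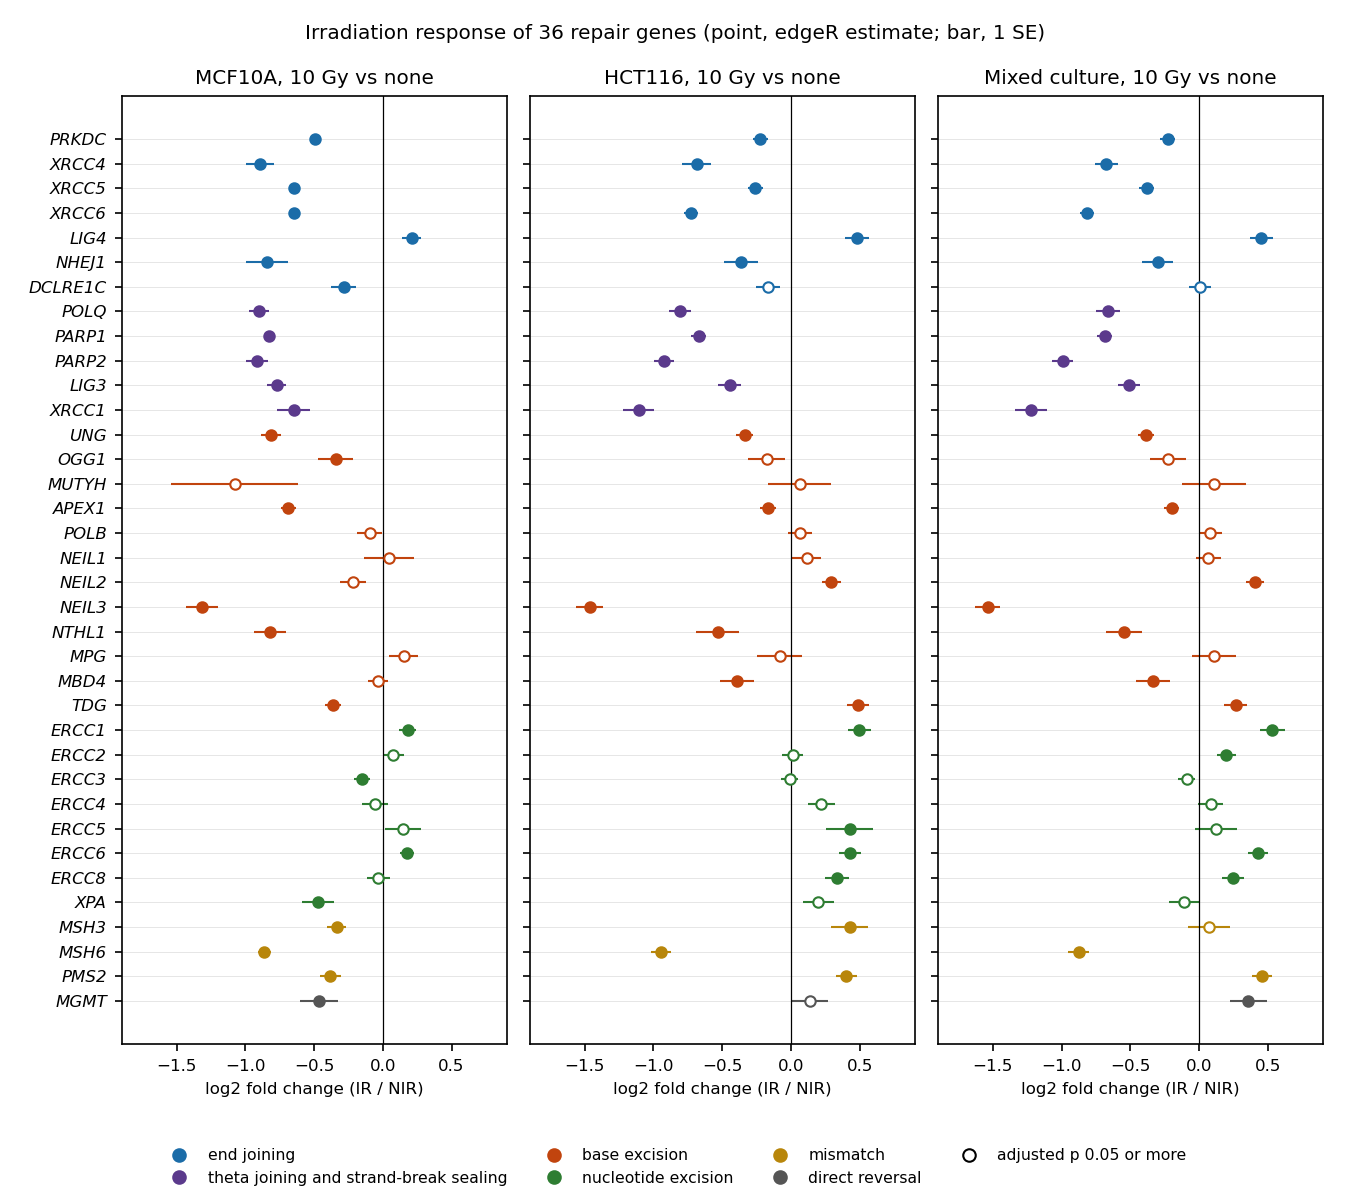
Change of each of the 36 repair genes after 10 Gy in the 3 cultures. The horizontal axis is the log2 fold change (IR over NIR), points are edgeR estimates with bars of 1 SE, colours give the repair role, and open points had an adjusted p of 0.05 or more. The end joining (blue) and strand-break sealing (purple) genes lie left of 0 in every panel, except LIG4 and, in the mixed cultures, DCLRE1C. Most nucleotide excision genes (green) lie at or right of 0 in HCT116 and the mixed cultures, and on both sides of 0 in MCF10A.

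Markers of dividing cells moved in the same libraries. The 16 proliferation markers, listed with earlier results of these data known, fell in all 3 cultures, 16 of 16 in each. Of all tested genes 29.2% were called lower in MCF10A, 27.2% in HCT116 and 25.4% in the mixed cultures. The summed level of the markers went from 3751 to 3811 CPM in NIR to 1508 to 1547 CPM in IR libraries of MCF10A. In HCT116 the sum went from 4859 to 5057 CPM down to 1872 to 1969 CPM, and in the mixed cultures from 5269 to 5617 CPM down to 2045 to 2466 CPM. The part of these markers in the changes of the repair genes was not tested. In such bulk libraries fewer cells of a kind and less RNA per cell cannot be told apart. The share of counts from mitochondrially encoded genes rose at the same time, from 5.10% to 5.32% up to 6.06% to 6.35% in MCF10A and from 8.42% to 8.75% up to 11.5% to 12.3% in HCT116.

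Of the 7 classical end joining genes, 6 fell and 1 rose in MCF10A, and 5 fell and 1 rose in HCT116 and in the mixed cultures. Of all tested genes 29.2% were called lower and 26.2% higher in MCF10A. The shares were 27.2% and 25.3% in HCT116, and 25.4% and 24% in the mixed cultures. XRCC4 (chr5:83077547-83374473, GRCh38.p14), the scaffold that holds DNA ligase IV, fell most in MCF10A. Its level stood at 17.4, 19.1 and 19.0 CPM in the NIR libraries and at 10.4, 9.81 and 10.1 CPM in the IR libraries, a log2 change of -0.89 ± 0.10 (SE, adjusted p = 3.1e-08). In HCT116 XRCC4 stood at 29.3, 29.5 and 30.9 CPM in the NIR libraries and at 17.2, 21.6 and 16.3 CPM in the IR libraries, a change of -0.69 ± 0.11 (SE, adjusted p = 8.3e-06). The mixed cultures had 33.8, 32.2 and 37.5 CPM of XRCC4 without and 21.2, 22.8 and 22.0 CPM with irradiation, a change of -0.67 ± 0.084 (SE, adjusted p = 9.2e-07). Every irradiated library lay below every non-irradiated library of its culture. XRCC6 (chr22:41621295-41664041), the smaller Ku subunit, was the most abundant end joining transcript per kilobase. In MCF10A XRCC6 stood at 531, 559.8 and 535 CPM in the NIR libraries and at 352, 352 and 353 CPM in the IR libraries, a change of -0.64 ± 0.039 (SE, adjusted p = 6.6e-14). In HCT116 it stood at 941, 952 and 954 CPM in the NIR libraries and at 568, 569 and 576 CPM in the IR libraries, with a change of -0.73 ± 0.052 (SE, adjusted p = 4.3e-11). In the mixed cultures its values were 998, 990.3 and 978 CPM in NIR and 549, 595 and 575 CPM in IR libraries, and the change was -0.81 ± 0.051 (SE, adjusted p = 2.5e-11). The groups did not overlap in any culture, and the 3 replicates lay close together.

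Of the other end joining genes, XRCC5 and PRKDC fell less in HCT116 than in MCF10A, by the test of the difference given further on. XRCC5, the larger Ku subunit, averaged 626 ± 6.33 CPM in NIR and 406 ± 6.11 CPM in IR libraries of MCF10A (mean ± SD, n = 3), and 734 ± 30.5 and 610.0 ± 17.2 CPM in those of HCT116, log2 changes of -0.65 and -0.26. PRKDC, the catalytic subunit DNA-PKcs, changed by -0.50 in MCF10A and -0.22 in HCT116, from means of 1043 ± 26.0 and 1260.3 ± 44.5 CPM. NHEJ1, which encodes XLF, changed by -0.84 ± 0.15 (SE, adjusted p = 2.5e-05) in MCF10A and by -0.36 ± 0.13 (SE, adjusted p = 0.019) in HCT116, but 62.3% of its exon length overlaps another gene on the same strand. Without HCT116 NIR replicate 1 or 2, or HCT116 IR replicate 3, the HCT116 value of NHEJ1 was -0.34 to -0.30 and missed the threshold (adjusted p up to 0.0956). NHEJ1 in the mixed cultures changed by -0.30 ± 0.11, and without NIR replicate 3, IR replicate 2 or IR replicate 3 its adjusted p was up to 0.119. The mixed call of NHEJ1 was also lost with DESeq2, upper-quartile factors or 1 fit over all 18 libraries. DCLRE1C, the Artemis nuclease, fell in MCF10A (-0.29 ± 0.089, adjusted p = 0.00773). That call was lost without MCF10A IR replicate 3 (-0.23, adjusted p = 0.0542) and with upper-quartile factors (-0.20, adjusted p = 0.0585). In HCT116 the change of DCLRE1C was -0.17 ± 0.087, with an adjusted p of 0.114.

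LIG4 (chr13:108207442-108218349), the ligase of the same pathway, went the other way. In MCF10A LIG4 stood at 44.0, 38.3 and 40.7 CPM in the NIR libraries and at 49.3, 46.4 and 48.7 CPM in the IR libraries, a change of 0.21 ± 0.068 (SE, adjusted p = 0.00955). In HCT116 LIG4 stood at 32.9, 29.9 and 34.2 CPM in the NIR libraries and at 40.9, 46.3 and 47.4 CPM in the IR libraries, a change of 0.48 ± 0.085 (SE, adjusted p = 4.8e-05). The mixed cultures gave 28.0, 31.7 and 33.0 CPM of LIG4 without and 41.5, 46.8 and 40.9 CPM with irradiation, a change of 0.45 ± 0.084 (SE, adjusted p = 0.00012). LIG4 was higher in every irradiated than in every non-irradiated library of the same culture. It was the only one of the 7 end joining genes to be called higher, and this held in all 3 cultures.

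The 5 genes of polymerase theta end joining and strand-break sealing fell in all 3 cultures. Of all tested genes 29.2% were called lower in MCF10A, 27.2% in HCT116 and 25.4% in the mixed cultures. PARP2 (chr14:20343635-20357904) makes poly(ADP-ribose) at single-strand breaks. Its level in MCF10A was 37.6, 38.1 and 34.6 CPM in NIR and 20.1, 20.2 and 19.3 CPM in IR libraries, a change of -0.91 ± 0.080 (SE, adjusted p = 1.2e-10). In HCT116 PARP2 stood at 67.0, 68.2 and 62.8 CPM in the NIR libraries and at 36.2, 33.7 and 34.2 CPM in the IR libraries, a change of -0.92 ± 0.073 (SE, adjusted p = 2.6e-10). The mixed cultures had 73.7, 64.7 and 66.9 CPM and 36.9, 31.9 and 36.2 CPM of PARP2, a change of -0.99 ± 0.076 (SE, adjusted p = 6.3e-10). PARP2 started higher in HCT116, and no groups of a culture overlapped. In a joint fit of both lines, which had its own scaling, its response in HCT116 minus that in MCF10A was -0.09 ± 0.10 (adjusted p = 0.568). POLQ (chr3:121431431-121545988) is the polymerase that joins ends through short homologies. In MCF10A POLQ stood at 56.2, 53.7 and 58.1 CPM in the NIR libraries and at 31.7, 27.7 and 31.8 CPM in the IR libraries, a change of -0.90 ± 0.070 (SE, adjusted p = 1e-11). In HCT116 POLQ stood at 80.0, 78.3 and 69.3 CPM in the NIR libraries and at 39.0, 47.0 and 43.4 CPM in the IR libraries, a change of -0.81 ± 0.078 (SE, adjusted p = 8.6e-09). Mixed cultures held POLQ at 78.2, 74.8 and 83.7 CPM and then 42.7, 58.3 and 51.2 CPM, a change of -0.66 ± 0.087 (SE, adjusted p = 1.7e-06). No irradiated library reached the level of a non-irradiated one of its own culture.

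XRCC1 (chr19:43543311-43575527), the scaffold that brings DNA ligase III to a nick, had the largest fall of this group in HCT116. In MCF10A XRCC1 stood at 17.0, 14.9 and 15.0 CPM in the NIR libraries and at 11.0, 11.1 and 8.41 CPM in the IR libraries, a change of -0.65 ± 0.12 (SE, adjusted p = 4e-05). In HCT116 XRCC1 stood at 23.7, 21.7 and 27.1 CPM in the NIR libraries and at 10.5, 10.9 and 12.1 CPM in the IR libraries, a change of -1.11 ± 0.11 (SE, adjusted p = 1.8e-08). The mixed cultures had 20.3, 28.4 and 26.5 CPM of XRCC1 without and 10.5, 11.5 and 10.9 CPM with irradiation, a change of -1.22 ± 0.12 (SE, adjusted p = 2e-08). No groups of a culture overlapped. HCT116 started higher in XRCC1 (0.43 ± 0.11, adjusted p = 0.00184), and after irradiation the lines differed by -0.09 ± 0.14 (adjusted p = 0.55). PARP1, the main poly(ADP-ribose) polymerase, averaged 783 ± 18.9 CPM in NIR and 449 ± 5.91 CPM in IR libraries of MCF10A, and 477 ± 13.6 and 298 ± 9.12 CPM in those of HCT116, log2 changes of -0.83 and -0.67. LIG3, DNA ligase III, changed by -0.77 in MCF10A, -0.45 in HCT116 and -0.51 in the mixed cultures. On the opposite strand RFFL covers 43.8% of the exon length of LIG3, and whether counting used the strand is not stated. The summed proliferation markers fell in the same libraries, as given above.

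**Figure D2:**
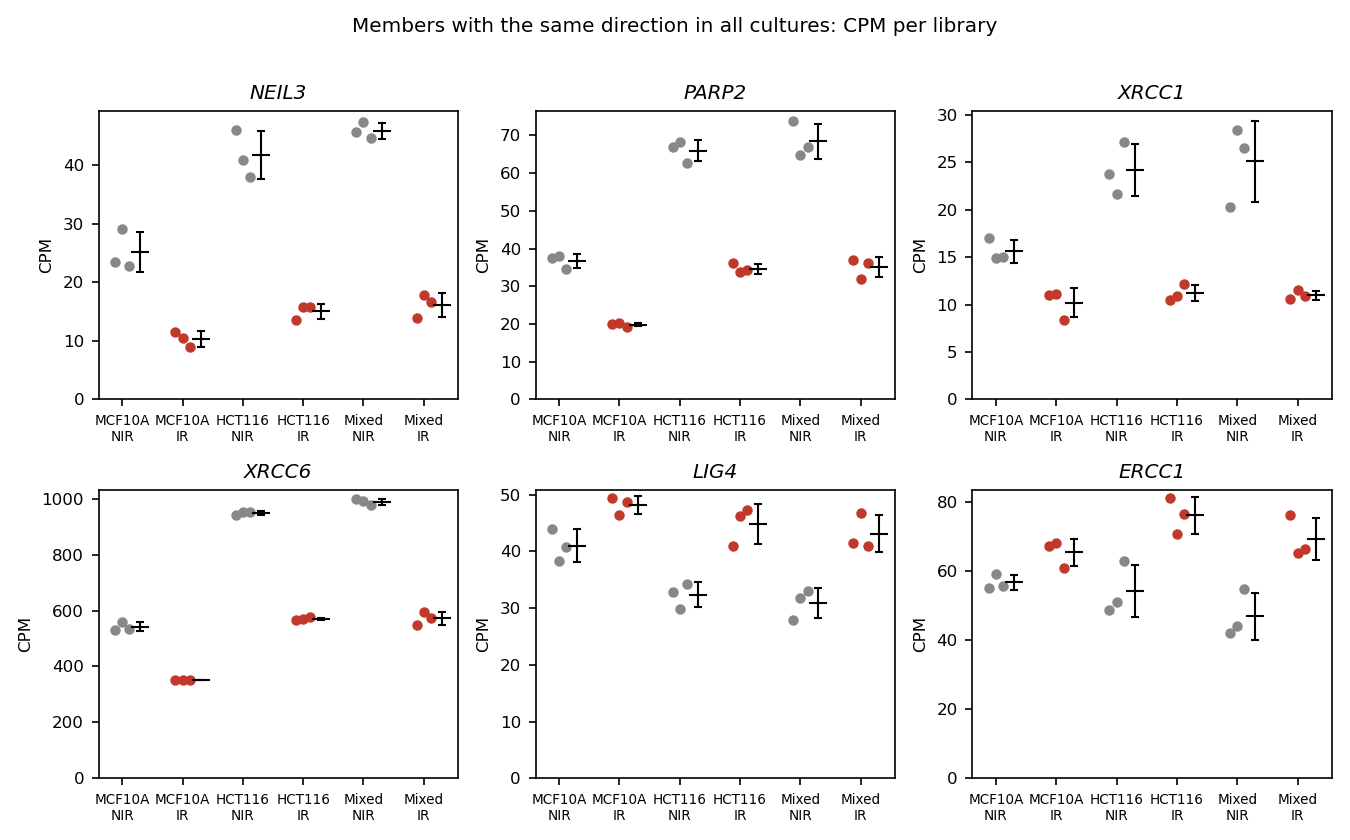
CPM of 6 genes that went the same way in all 3 cultures, by group. Dots are libraries (grey NIR, red IR), and the bar beside them is the mean ± SD of 3. NEIL3, PARP2, XRCC1 and XRCC6 are lower in every irradiated library of a culture, and LIG4 and ERCC1 are higher.

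The start regions of the genes lowered in all 3 cultures were read for motifs known from cell-cycle genes. RefSeq windows of 300 bases around the start (GRCh38.p14) were found for 32 of the 36 members and for 13 of the 15 genes that fell in all cultures. The letters of the cell-cycle homology region (CHR), TTTGAA or TTCGAA on either strand, were present for 5 of these 13 genes (38.5%), for 3 of the 19 other members (15.8%) and for 5336 of the 27305 genes with a window (19.5%). The letters of E2F sites, TTTGGCGC, TTTCCCGC or TTTCGCGC on either strand, were present for 2 of the 13 genes (15.4%), for 1 of the 19 others (5.26%) and for 902 of all 27305 genes (3.30%). A match only says that these letters are present. The windows of 4 genes with a CHR-type match near the start and of MSH6 with an E2F-type match are shown from 100 bases before to 30 bases after the start, 5′ to 3′ on the gene's own strand, with the matching letters in capitals. They lie at chr4:177309774-177309903 (NEIL3), chr3:121545959-121546088 (POLQ), chr14:20343535-20343664 (PARP2), chr19:43575498-43575627 (XRCC1) and chr2:47783045-47783174 (MSH6), with POLQ and XRCC1 on the minus strand.
NEIL3: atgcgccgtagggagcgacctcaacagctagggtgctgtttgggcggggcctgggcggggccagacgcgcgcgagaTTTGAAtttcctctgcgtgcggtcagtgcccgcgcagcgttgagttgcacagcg
POLQ: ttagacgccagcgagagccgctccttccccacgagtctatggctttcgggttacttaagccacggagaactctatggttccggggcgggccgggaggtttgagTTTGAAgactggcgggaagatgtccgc
PARP2: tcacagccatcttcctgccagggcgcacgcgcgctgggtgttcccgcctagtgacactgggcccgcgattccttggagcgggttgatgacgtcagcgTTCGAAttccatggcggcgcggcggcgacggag
XRCC1: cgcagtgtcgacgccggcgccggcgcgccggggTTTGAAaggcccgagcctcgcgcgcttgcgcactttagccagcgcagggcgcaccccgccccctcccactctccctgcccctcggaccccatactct
MSH6: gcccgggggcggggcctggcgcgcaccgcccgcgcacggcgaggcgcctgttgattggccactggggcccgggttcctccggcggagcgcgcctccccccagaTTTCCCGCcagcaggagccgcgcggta
The capitals begin 24 bases before the start in NEIL3, 3 bases before it in PARP2 and 67 bases before it in XRCC1, and 3 bases after it in POLQ and in MSH6.

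The 12 base excision genes were mixed. In MCF10A 6 of them fell and none rose, while in HCT116 and in the mixed cultures 5 fell and 2 rose. The called shares of 50%, 58.3% and 58.3% were near those of all genes (55.4%, 52.5% and 49.4%). NEIL3 (chr4:177309874-177371268), a glycosylase for oxidised bases that is known from dividing cells, had the largest called change of all 36 genes in every culture. In MCF10A NEIL3 stood at 23.6, 29.1 and 22.8 CPM in the NIR libraries and at 11.5, 10.5 and 8.94 CPM in the IR libraries, a change of -1.31 ± 0.11 (SE, adjusted p = 9.1e-11). In HCT116 NEIL3 stood at 46.1, 41.0 and 38.0 CPM in the NIR libraries and at 13.5, 15.8 and 15.8 CPM in the IR libraries, a change of -1.46 ± 0.098 (SE, adjusted p = 1.5e-11). In the mixed cultures it went from 45.7, 47.3 and 44.7 CPM to 13.8, 17.9 and 16.6 CPM, a change of -1.54 ± 0.091 (SE, adjusted p = 1e-11). All irradiated libraries lay well below the non-irradiated ones of their culture. UNG (chr12:109097597-109110992) removes uracil from DNA. In MCF10A UNG stood at 57.9, 63.8 and 52.4 CPM in the NIR libraries and at 32.8, 33.6 and 34.1 CPM in the IR libraries, a change of -0.82 ± 0.073 (SE, adjusted p = 1.6e-10). In HCT116 UNG stood at 91.9, 95.7 and 100.4 CPM in the NIR libraries and at 76.4, 75.6 and 74.5 CPM in the IR libraries, a change of -0.34 ± 0.064 (SE, adjusted p = 0.0001). In both lines the groups were apart, with the larger drop in MCF10A. APEX1, the endonuclease that cuts the strand once a base is gone, changed by -0.69 in MCF10A and -0.17 in HCT116. The HCT116 call of APEX1 was lost without HCT116 NIR replicate 3, IR replicate 1 or IR replicate 3, with values of -0.17 to -0.13 and an adjusted p of up to 0.0858. NTHL1, which removes oxidised pyrimidines, changed by -0.82 in MCF10A and -0.53 in HCT116, and the latter was -0.35 without IR replicate 2 (adjusted p = 0.0608).

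3 other glycosylases responded in 1 line and not, or the other way, in the other. TDG (chr12:103965872-103988874) removes thymine mispaired with guanine, and also oxidised methylcytosine. In MCF10A TDG stood at 82.1, 83.1 and 79.1 CPM in the NIR libraries and at 65.1, 60.4 and 67.4 CPM in the IR libraries, a change of -0.36 ± 0.056 (SE, adjusted p = 3.4e-06). In HCT116 TDG stood at 39.6, 37.8 and 33.3 CPM in the NIR libraries and at 52.6, 51.3 and 50.4 CPM in the IR libraries, a change of 0.49 ± 0.078 (SE, adjusted p = 1.4e-05). Mixed cultures held TDG at 35.7, 38.4 and 43.0 CPM and then 43.2, 52.3 and 48.2 CPM, a change of 0.27 ± 0.084 (SE, adjusted p = 0.0121). TDG fell in MCF10A and rose in HCT116 with no overlap of groups in either line. The call in the mixed cultures was lost without NIR replicate 1 or IR replicate 2, at values of 0.19 to 0.20. NEIL2 (chr8:11769710-11787345) acts on oxidised bases in bubbles and transcribed DNA. In HCT116 NEIL2 stood at 51.6, 50.2 and 50.6 CPM in the NIR libraries and at 65.1, 60.2 and 60.3 CPM in the IR libraries, a change of 0.29 ± 0.069 (SE, adjusted p = 0.00104). Mixed cultures held NEIL2 at 49.2, 44.4 and 48.0 CPM and then 62.3, 65.6 and 62.9 CPM, a change of 0.41 ± 0.068 (SE, adjusted p = 4.1e-05). In MCF10A NEIL2 stood at 18.8, 19.2 and 20.3 CPM in the NIR libraries and at 17.5, 16.2 and 17.2 CPM in the IR libraries, and the change of -0.22 ± 0.094 did not pass the test (adjusted p = 0.0501). NEIL2 was higher in every irradiated HCT116 and mixed library, and in MCF10A the irradiated libraries lay just below the others.

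MBD4 (chr3:129430947-129439948), which binds methylated CpG sites and removes thymine or uracil there, was called lower in HCT116 only among the 2 lines. In HCT116 MBD4 stood at 15.3, 14.5 and 14.3 CPM in the NIR libraries and at 9.69, 10.9 and 12.9 CPM in the IR libraries, a change of -0.39 ± 0.12 (SE, adjusted p = 0.00957). Without IR replicate 1 that change was -0.30 (adjusted p = 0.0612). In MCF10A MBD4 stood at 45.1, 42.8 and 40.8 CPM in the NIR libraries and at 40.2, 41.3 and 45.8 CPM in the IR libraries, a change of -0.04 ± 0.071 with an adjusted p of 0.688. The MCF10A groups overlapped and the HCT116 groups did not. MBD4 in the mixed cultures changed by -0.33. That call was lost without NIR replicate 1, IR replicate 2 or IR replicate 3 (adjusted p up to 0.158). DESeq2 and upper-quartile factors lost it too. OGG1, the glycosylase for oxidised guanine, was called lower in MCF10A (-0.34 ± 0.13, adjusted p = 0.0229), a call lost without NIR replicate 1, IR replicate 1 or IR replicate 2 (adjusted p up to 0.0715) and with DESeq2 or upper-quartile factors (adjusted p up to 0.0835). OGG1 changed by -0.18 in HCT116 and -0.23 in the mixed cultures, not called. In the joint fit of both lines, with its own scaling, the OGG1 response of HCT116 minus that of MCF10A was 0.09 ± 0.18 (adjusted p = 0.764). POLB, the gap-filling polymerase, MPG, which removes alkylated purines, NEIL1, a further glycosylase for oxidised bases, and MUTYH, which removes adenine paired with oxidised guanine, passed the test in none of the 3 cultures. The MCF10A estimate for MUTYH was -1.08 ± 0.46 (adjusted p = 0.0501), from 1.26, 1.10 and 1.57 CPM in NIR and 1.14, 0.511 and 0.265 CPM in IR libraries, which overlapped.

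Among the 8 nucleotide excision genes 2 rose and 2 fell in MCF10A, and 4 rose and none fell in HCT116 and in the mixed cultures. That is 50% of them called in each culture, near the 55.4%, 52.5% and 49.4% of all genes. ERCC1 (chr19:45407334-45451547) forms the nuclease that cuts on the 5′ side of a lesion with ERCC4. In MCF10A ERCC1 stood at 55.0, 59.2 and 55.7 CPM in the NIR libraries and at 67.1, 68.1 and 60.8 CPM in the IR libraries, a change of 0.18 ± 0.062 (SE, adjusted p = 0.0133). In HCT116 ERCC1 stood at 48.5, 51.1 and 62.8 CPM in the NIR libraries and at 81.1, 70.5 and 76.3 CPM in the IR libraries, a change of 0.50 ± 0.085 (SE, adjusted p = 3.4e-05). In the mixed cultures it was at 41.9, 44.1 and 54.6 CPM and then 76.1, 65.2 and 66.2 CPM, a change of 0.53 ± 0.090 (SE, adjusted p = 4.1e-05). ERCC1 was higher in all irradiated libraries of each culture, but the MCF10A call was lost without NIR replicate 1, IR replicate 1 or IR replicate 2, where the value was 0.14 to 0.16 and the adjusted p up to 0.0894. The MCF10A call of ERCC1 was also lost in 1 fit over all 18 libraries (adjusted p = 0.137). On the opposite strand CD3EAP covers 36.6% of the exon length of ERCC1. ERCC6 (chr10:49434881-49539538) is the ATPase that couples excision to stalled RNA polymerase. In MCF10A ERCC6 stood at 90.004, 84.1 and 84.8 CPM in the NIR libraries and at 103, 97.4 and 97.1 CPM in the IR libraries, a change of 0.18 ± 0.051 (SE, adjusted p = 0.00422). In HCT116 ERCC6 stood at 41.2, 37.3 and 37.2 CPM in the NIR libraries and at 54.9, 48.9 and 51.1 CPM in the IR libraries, a change of 0.43 ± 0.077 (SE, adjusted p = 5.9e-05). Mixed cultures held ERCC6 at 36.9, 39.1 and 38.0 CPM and then 51.6, 49.0 and 55.3 CPM, a change of 0.42 ± 0.072 (SE, adjusted p = 4.7e-05). The groups were apart in each culture.

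The partner of ERCC6 in that step, ERCC8, rose in HCT116 (0.34 ± 0.087, adjusted p = 0.00249), from 28.4 ± 1.73 to 35.7 ± 2.77 CPM, and changed by -0.03 ± 0.081 in MCF10A (adjusted p = 0.76). ERCC8 in the mixed cultures changed by 0.25, a call lost without NIR replicate 1, IR replicate 2 or IR replicate 3 (adjusted p up to 0.112). ERCC5, the nuclease that cuts on the 3′ side, was called higher in HCT116 (0.43 ± 0.17, adjusted p = 0.0378), but without NIR replicate 1, IR replicate 1 or IR replicate 2 its adjusted p was up to 0.244, and 64.4% of its exon length overlaps BIVM and the BIVM-ERCC5 readthrough on the same strand. With DESeq2 the HCT116 call of ERCC5 was lost as well. XPA (chr9:97654398-97697340), which verifies the damage, was called lower in MCF10A. In MCF10A XPA stood at 15.3, 16.7 and 13.4 CPM in the NIR libraries and at 9.99, 10.6 and 12.6 CPM in the IR libraries, a change of -0.47 ± 0.12 (SE, adjusted p = 0.00129). In HCT116 XPA stood at 16.5, 16.1 and 13.9 CPM in the NIR libraries and at 16.3, 19.6 and 17.2 CPM in the IR libraries, a change of 0.20 ± 0.11 that did not pass the test (adjusted p = 0.144). The XPA groups were apart in MCF10A and overlapped in HCT116. Of the 2 helicases of TFIIH, ERCC3 fell slightly in MCF10A (-0.15 ± 0.061, adjusted p = 0.0362), a call lost without each MCF10A library in turn except IR replicate 3 (adjusted p up to 0.178), and also lost with DESeq2, upper-quartile factors, library size alone or halved counts (adjusted p up to 0.361), and ERCC2 was called higher in the mixed cultures (0.20 ± 0.071, adjusted p = 0.0251), a call lost without NIR replicate 1, IR replicate 1 or IR replicate 3 (adjusted p up to 0.119). The mixed call of ERCC2 was also lost with no filter. ERCC4 passed the test in none of the 3 cultures, with changes of -0.06, 0.22 and 0.08.

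The 3 mismatch repair genes fell together in MCF10A and parted in HCT116. Of all tested genes 29.2% were called lower in MCF10A, and 27.2% lower and 25.3% higher in HCT116. MSH6 (chr2:47783145-47810101), which recognises single mispaired bases, fell in both. In MCF10A MSH6 stood at 185, 173 and 165 CPM in the NIR libraries and at 93.5, 98.6 and 100.4 CPM in the IR libraries, a change of -0.86 ± 0.050 (SE, adjusted p = 2.4e-14). In HCT116 MSH6 stood at 122, 115 and 108 CPM in the NIR libraries and at 53.3, 64.4 and 61.0 CPM in the IR libraries, a change of -0.94 ± 0.073 (SE, adjusted p = 1.8e-10). Mixed cultures held MSH6 at 124, 112 and 118 CPM and then 61.8, 74.1 and 60.6 CPM, a change of -0.88 ± 0.074 (SE, adjusted p = 2.8e-09). Each irradiated library had clearly less MSH6 than any non-irradiated one of its culture. MSH3 (chr5:80654652-80876815), the alternative partner that recognises small loops, did not follow it. In MCF10A MSH3 stood at 43.8, 40.4 and 42.9 CPM in the NIR libraries and at 34.1, 33.6 and 34.6 CPM in the IR libraries, a change of -0.34 ± 0.069 (SE, adjusted p = 0.00015). In HCT116 MSH3 stood at 7.32, 7.92 and 7.20 CPM in the NIR libraries and at 10.3, 10.1 and 9.64 CPM in the IR libraries, a change of 0.43 ± 0.13 (SE, adjusted p = 0.0101). Mixed cultures held MSH3 at 8.80, 6.57 and 9.12 CPM and then 7.68, 8.13 and 10.4 CPM, a change of 0.07 ± 0.15 (adjusted p = 0.726). The MSH3 groups were apart in both lines, in opposite directions, and overlapped in the mixed cultures, where the value was -0.064 without NIR replicate 2 and -0.071 without IR replicate 3.

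PMS2 (chr7:5970925-6009106), the endonuclease subunit that nicks the new strand, went like MSH3. In MCF10A PMS2 stood at 39.8, 38.9 and 36.9 CPM in the NIR libraries and at 33.0, 26.9 and 30.3 CPM in the IR libraries, a change of -0.38 ± 0.078 (SE, adjusted p = 0.00015). In HCT116 PMS2 stood at 43.9, 40.7 and 37.9 CPM in the NIR libraries and at 55.4, 55.4 and 49.9 CPM in the IR libraries, a change of 0.40 ± 0.078 (SE, adjusted p = 0.00014). The mixed cultures had 41.5, 35.4 and 38.6 CPM of PMS2 without and 52.7, 53.5 and 55.3 CPM with irradiation, a change of 0.46 ± 0.073 (SE, adjusted p = 2e-05). All 3 MCF10A libraries were lower and all 3 HCT116 and mixed libraries higher after irradiation, without overlap. PMS2 has near-identical pseudogene copies, and how such reads were counted is not stated, so its values are uncertain. MGMT, which reverses alkylation of guanine directly, fell in MCF10A from 9.55 ± 0.201 to 7.06 ± 0.933 CPM (-0.46 ± 0.14, adjusted p = 0.00529). In HCT116 MGMT changed by 0.13 ± 0.14 (adjusted p = 0.429), and in the mixed cultures by 0.36 ± 0.14 (SE, adjusted p = 0.0331). The mixed call was lost without NIR replicate 1, NIR replicate 3, IR replicate 2 or IR replicate 3 (adjusted p up to 0.176). It was also lost with DESeq2 or no filter.

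**Figure D3:**
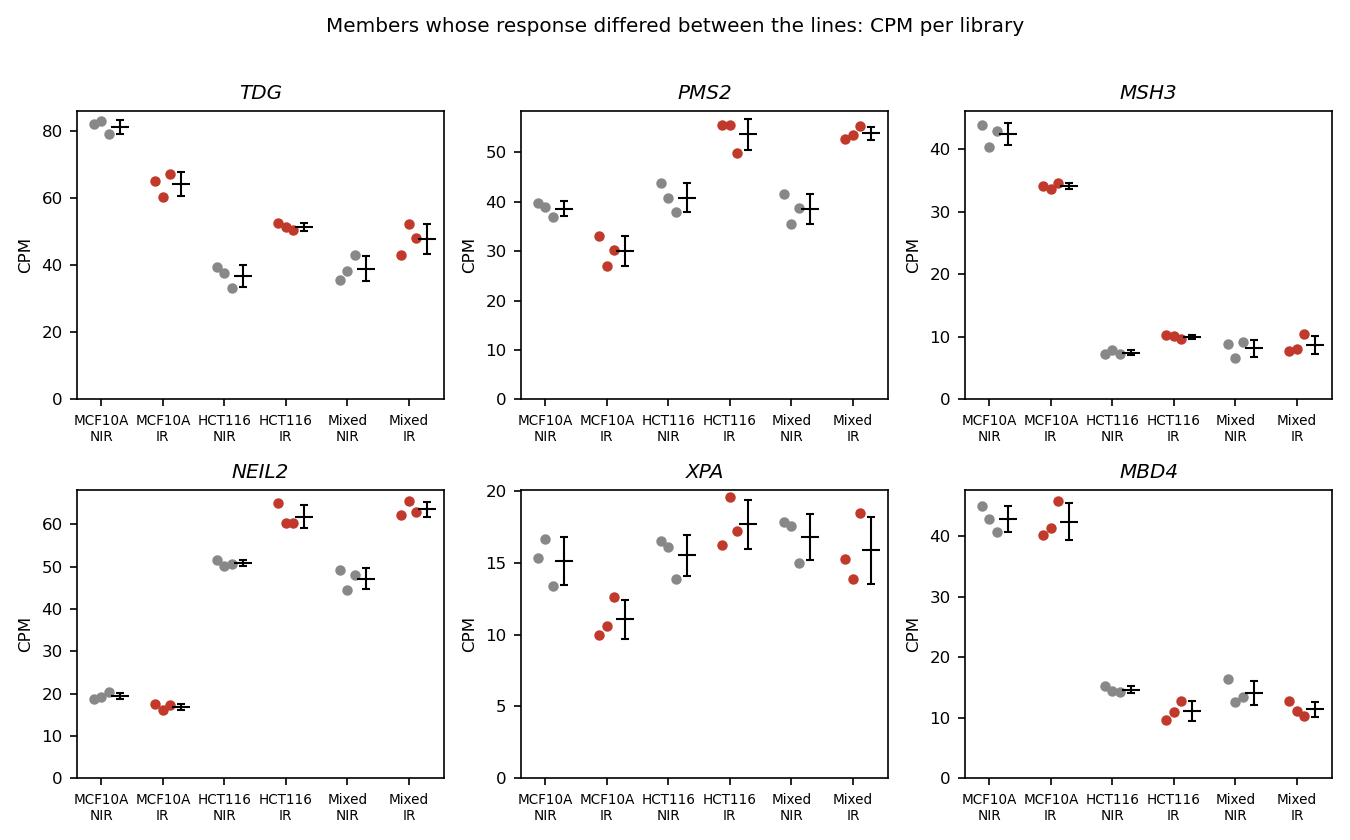
CPM of 6 genes whose response differed between MCF10A and HCT116, by group. Dots are libraries (grey NIR, red IR), and the bar beside them is the mean ± SD of 3. TDG, PMS2 and MSH3 are lower after irradiation in MCF10A and higher in HCT116, and MSH3 and MBD4 sit far lower in HCT116 and mixed libraries than in MCF10A.

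The difference between the responses was then tested itself, as the HCT116 change minus the MCF10A change. It came from a joint fit of both lines with its own scaling, so it can differ from subtracting the changes given above. It passed for 13 of the 36 genes (36.1%), 10 with a higher and 3 with a lower value in HCT116, against 15.4% of all genes higher and 21.9% lower (37.3% in either direction). The 36 genes had a median difference of 0.19, and all tested genes one of -0.10. TDG differed most, by 0.77 ± 0.093 (SE, adjusted p = 3.1e-07), followed by PMS2 at 0.71 ± 0.11 (SE, adjusted p = 1.7e-05) and MSH3 at 0.69 ± 0.12 (SE, adjusted p = 8.8e-05). XPA differed by 0.59 ± 0.17 (SE, adjusted p = 0.00746). These 4 genes fell in MCF10A, and the first 3 rose in HCT116. MGMT (0.52), APEX1 (0.44), NEIL2 (0.43), UNG (0.40), XRCC5 (0.31) and PRKDC (0.20) made up the rest of the genes with a higher value in HCT116. The MGMT difference missed the threshold without any 1 of 6 libraries, namely any MCF10A NIR replicate, HCT116 NIR replicate 1 or 2, or HCT116 IR replicate 3 (adjusted p up to 0.0953). No test of the difference passed for NEIL3 (-0.23 ± 0.16, adjusted p = 0.286), LIG4 (0.19 ± 0.11, adjusted p = 0.181) or MUTYH (1.07 ± 0.49, adjusted p = 0.0934).

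On the lower side, XRCC1 differed by -0.54 ± 0.17 (SE, adjusted p = 0.0159), MBD4 by -0.44 ± 0.13 (SE, adjusted p = 0.0105) and XRCC6 by -0.16 ± 0.060 (SE, adjusted p = 0.0368). Fitted apart, the lines gave XRCC6 changes of -0.64 in MCF10A and -0.73 in HCT116. The call for XRCC1 was lost without MCF10A IR replicate 1 or 2, HCT116 NIR replicate 3 or HCT116 IR replicate 2. It was also lost with no filter, in 1 fit over all 18 libraries and without mitochondrial and the 10 most abundant genes. Values were -0.44 to -0.36 over the alternatives that lost it. MBD4 was lost without MCF10A IR replicate 2 or 3 or HCT116 IR replicate 2, and also with no filter or in 1 fit over all 18 libraries, with values of -0.35 to -0.27. XRCC6 lay close to the median of all genes, and without any 1 of 10 of the 12 libraries (all but MCF10A NIR replicate 2 and HCT116 NIR replicate 1) it was not called. The XRCC6 call was also lost with library size alone, no filter, 1 fit over all 18 libraries, or mitochondrial and the 10 most abundant genes left out. With mitochondrially encoded genes and the 10 most abundant genes left out of the scaling, the median of all genes moved to -0.0058, and 16 members were called higher and 1 lower. The share of higher calls among all called genes then went from 41.3% to 52.5%.

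**Figure D4:**
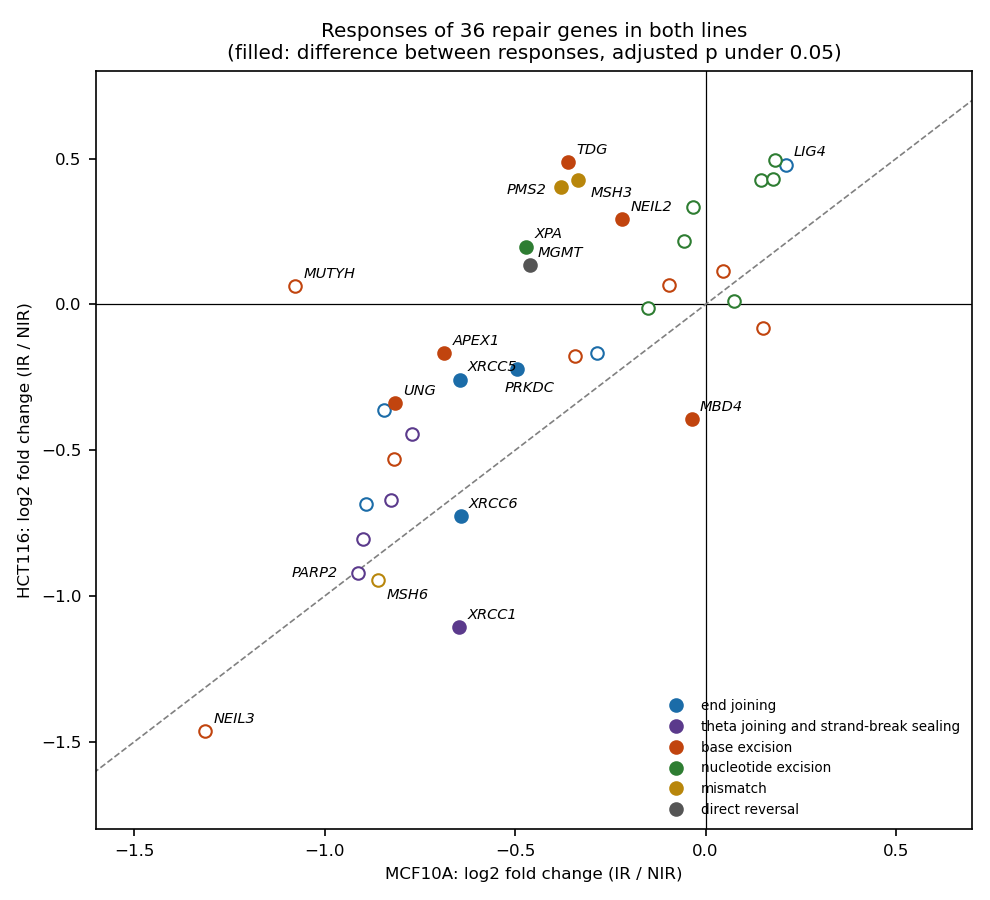
Log2 fold change after 10 Gy in HCT116 (vertical) against MCF10A (horizontal) for the 36 genes, coloured by repair role. The dashed line marks equal change, and filled points differed between the lines at an adjusted p under 0.05. TDG, PMS2 and MSH3 lie in the upper left, lower in MCF10A and higher in HCT116, while NEIL3, PARP2 and MSH6 lie near the dashed line.

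The lines also differed in the level of many of these genes before irradiation. In HCT116 13 members were higher and 14 lower than in MCF10A, against 38.7% and 36.1% of all genes (74.8% in either direction), so the count of 27 was about that of genes at large. MSH3 had the largest difference, at -2.70 ± 0.094 (SE, adjusted p = 2.1e-14), from 43.8, 40.4 and 42.9 CPM in MCF10A against 7.32, 7.92 and 7.20 CPM in HCT116, or 6.49-fold lower in HCT116. MBD4 differed by -1.75 ± 0.085 (SE, adjusted p = 2.4e-12), from 45.1, 42.8 and 40.8 CPM against 15.3, 14.5 and 14.3 CPM. ERCC6 (-1.36 ± 0.066) and TDG (-1.34 ± 0.071) were the next lowest in HCT116, from 86.3 ± 3.23 against 38.5 ± 2.27 CPM and from 81.4 ± 2.09 against 36.9 ± 3.23 CPM. No library of 1 line reached the other line for any of these 4 genes.

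The 3 members with the largest differences toward HCT116 were glycosylases. Of the other glycosylases, NEIL3 and UNG were also called higher (0.53 each), and MBD4, TDG and MPG were called lower. NEIL1 (chr15:75347039-75357115) stood at 7.00, 3.89 and 6.42 CPM in MCF10A and at 23.1, 22.8 and 19.9 CPM in HCT116, a difference of 1.73 ± 0.16 (SE, adjusted p = 2.9e-08). NEIL2 stood at 18.8, 19.2 and 20.3 CPM against 51.6, 50.2 and 50.6 CPM, a difference of 1.19 ± 0.078 (SE, adjusted p = 1.6e-10). MUTYH (chr1:45329242-45340440), the scarcest member in MCF10A per kilobase, stood at 1.26, 1.10 and 1.57 CPM against 3.73, 2.86 and 3.04 CPM, a difference of 1.10 ± 0.28 (SE, adjusted p = 0.00193). The lines did not overlap for any of the 3 genes. PARP2 followed with 0.64 ± 0.070 and XRCC6 with 0.61 ± 0.049. By role, 6 of the 12 base excision genes were higher and 4 lower in HCT116, 3 of the 7 end joining genes were higher and 1 lower, 1 of the 8 nucleotide excision genes was higher and 4 lower, and 2 of the 3 mismatch genes were lower. In that order 83.3%, 57.1%, 62.5% and 66.7% were called, against 74.8% of all genes (38.7% higher and 36.1% lower). Among the end joining genes the DCLRE1C call was lost in 7 alternatives, DESeq2 and no filter included (adjusted p up to 0.182).

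After irradiation 18 members were higher and 10 lower in HCT116, against 38.1% and 36.8% of all genes (74.9% in either direction). MBD4 was then lowest, at -2.17 ± 0.10 (SE, adjusted p = 1.7e-16), from 40.2, 41.3 and 45.8 CPM against 9.69, 10.9 and 12.9 CPM. MSH3 differed by -1.996 ± 0.095 (SE, adjusted p = 3e-16), from 34.1, 33.6 and 34.6 CPM against 10.3, 10.1 and 9.64 CPM. MPG (chr16:77007-85846) differed by -1.40 ± 0.14 (SE, adjusted p = 1.2e-09), from 14.4, 13.4 and 14.1 CPM against 7.31, 5.51 and 5.83 CPM. ERCC6 differed by -1.17 ± 0.060. Highest in HCT116 was MUTYH, at 2.19 ± 0.38 (SE, adjusted p = 1.4e-05), from 1.14, 0.511 and 0.265 CPM against 3.23, 3.99 and 2.72 CPM, where the counts in MCF10A were few and spread widely. NEIL1 differed by 1.74 ± 0.13, NEIL2 by 1.64 ± 0.078 and UNG by 0.94 ± 0.065 (SE, adjusted p = 7.5e-13), the latter from 32.8, 33.6 and 34.1 CPM against 76.4, 75.6 and 74.5 CPM. Of the end joining genes 6 of 7 were now higher in HCT116, LIG4 being the exception at -0.33. The DCLRE1C call among them was lost without MCF10A IR replicate 3 or HCT116 IR replicate 2 (adjusted p up to 0.0967). In these line comparisons the scaling mattered. With upper-quartile factors or library size alone the median of all genes rose from 0.05 to 0.25 without irradiation and from 0.04 to 0.22 and 0.27 after it, and the share of higher calls went from 51.8% to 62.4% and 62.2%, and from 50.9% to 60.2% and 62.4%. Under both of these scalings LIG3 (-0.24) and LIG4 were not called after irradiation, nor were APEX1 (-0.21), ERCC1 (-0.26) and MGMT (-0.37) without it. LIG3 was also not called in 1 fit over all 18 libraries, and ERCC5 (-0.50, after irradiation) not with library size alone. ERCC1 and MGMT were also not called without HCT116 NIR replicate 1 or 2.

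**Figure D5:**
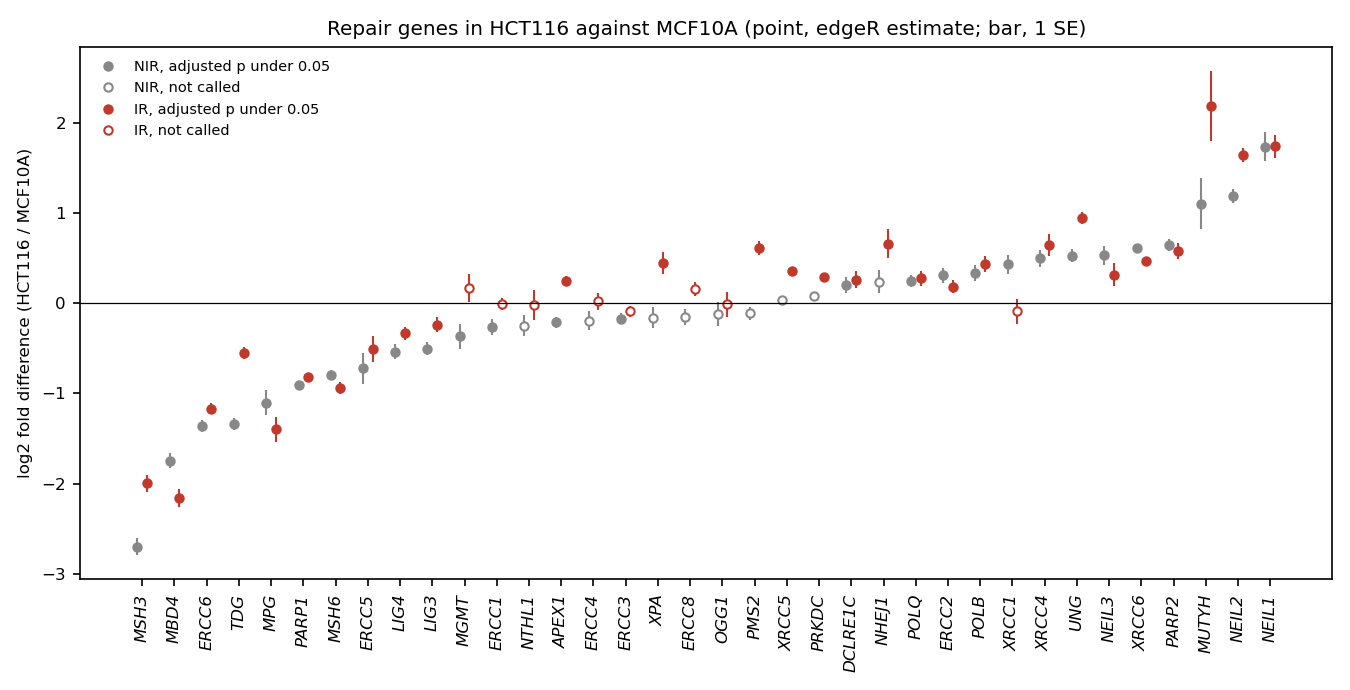
Log2 difference of HCT116 over MCF10A for the 36 genes without (grey) and with (red) irradiation, ordered by the former. Points are edgeR estimates with bars of 1 SE, and open points were not called. MSH3 and MBD4 are at the low end and NEIL1, NEIL2 and MUTYH at the high end in both conditions, and PMS2 and XPA move from no call to higher in HCT116 after irradiation.

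Levels of different genes are compared only per kilobase of exon. In every group the same 5 genes, XRCC6, XRCC5, PARP1, APEX1 and PRKDC, stood above 50 CPM per kilobase, while the median of the 36 genes lay between 9.21 and 11.3 CPM per kilobase. In MCF10A without irradiation XRCC6 stood at 184, PARP1 at 184 and XRCC5 at 167 CPM per kilobase, the first 2 not apart beyond the spread of their libraries. In HCT116 the order was XRCC6 at 322, XRCC5 at 195, APEX1 at 142 and PARP1 at 112 CPM per kilobase. The Ku subunits were thus far above their ligase partners, XRCC4 at 17.3, LIG4 at 7.37 and NHEJ1 at 6.35 CPM per kilobase in the same libraries. Irradiation moved LIG4 past XRCC4 in MCF10A, from 9.35 against 10.7 to 11.0 against 5.84 CPM per kilobase, while in HCT116 the pair ended at 10.2 and 10.6.

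None of the 36 repair genes was called different between mixed and HCT116 NIR cultures, where 2.04% of all genes were (0.887% higher and 1.15% lower), and 2 had an unadjusted p under 0.05 (XRCC4 and XRCC5). The estimates ran from -0.19 for ERCC1 to 0.22 for XRCC4, with SEs of up to 0.24. After irradiation none was called either, against 8.56% of all genes (5.08% higher and 3.48% lower), 5 had an unadjusted p under 0.05 (DCLRE1C, ERCC1, PARP1, POLQ and XRCC4), and the estimates ran from -0.21 for MSH3 to 0.24 for XRCC4. Without HCT116 IR replicate 2 XRCC4 was called at 0.38, and without Mixed IR replicate 1 POLQ was called at 0.33 and ERCC1 at -0.22. None of the 36 had a response that differed between mixed and HCT116 cultures, against 0.83% of all genes (0.681% higher and 0.149% lower), and none had an unadjusted p under 0.05. DESeq2 called none of the members in any of these 3 comparisons. MCF10A RNA made up at most 1.29% of these mixed libraries.

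The wider repair machinery was read from lists of 56 further genes of the same pathways. In MCF10A 7 of the 55 tested rose and 36 fell, against 26.2% of all genes higher and 29.2% lower. In HCT116 17 of 56 rose and 22 fell, against 25.3% and 27.2%, and in the mixed cultures 15 rose and 24 fell, against 24% and 25.4%. Between mixed and HCT116 cultures 1.82% of the wider genes were called without irradiation, 8.93% after it and 1.79% for the response, against 2.04%, 8.56% and 0.83% of all genes. The falls were led by EXO1, the mismatch exonuclease (-1.58 in MCF10A, -1.32 in HCT116 and -1.03 in mixed cultures), by the clamp loader subunits RFC4 (-1.26, -1.56 and -1.47) and RFC5 (-1.39, -1.38 and -1.21), and by POLD1, the catalytic subunit of polymerase delta (-1.05, -1.40 and -1.21). These genes also serve DNA replication. Among the rises, PARP3 changed by 0.68, 0.89 and 0.81, and POLD4, an accessory subunit of polymerase delta, by 0.77, 0.56 and 0.81. XPC, which finds distorted DNA in nucleotide excision repair, rose in HCT116 (0.94 ± 0.072, adjusted p = 1.5e-10) from 48.8 ± 3.16 to 93.3 ± 6.51 CPM and changed by 0.07 in MCF10A (adjusted p = 0.397).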

How the data were processed

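Poly(A)-selected RNA of 18 cultures was sequenced, and each library has a table of counts per gene symbol as deposited by the authors. Per the submitters' processing notes the build is GRCh38 and the tools include fastp, STAR and featureCounts; versions, annotation and strand setting are not given in the sources used here. Of the values from 1 to 10, 68.3% were even, so mates may have been counted one by one, and halved counts were tried as an alternative.

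CPM are counts over the library total. Groups were compared with edgeR 4.0.16 (R 4.3.3): filterByExpr, TMM scaling and quasi-likelihood tests on the libraries of each comparison, with Benjamini-Hochberg adjustment over all tested genes and a threshold of 0.05. "Called" means past that threshold. The SE is the estimate over the square root of F, two-sided tests throughout. Log2 changes use TMM scaling, so they can differ from ratios of mean CPM. Response differences are interaction terms from a joint fit of the groups involved, with its own TMM factors. They can therefore differ from subtracting the separate changes. The scripts were tested on simulated data.

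The members and lists were chosen with earlier results of these data known. Full values are given for the 4 largest called changes in each direction per comparison, and of the wider lists mainly the 3 largest; XPC in the report and the genes of the closing observations include some chosen after their values were seen. Exon lengths and overlaps are from GENCODE v29 basic, promoters and positions from RefSeq GRCh38.p14. Alternatives were DESeq2 1.42.0, other scalings, no filter, halved counts, 1 fit over all libraries, a replicate block and leaving out each library. Same-numbered replicates did not deviate together (mean correlation of deviations -0.021 to 0.057), so no pairing was used. 1 gene of the wider lists is not reported here.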

Additional observations from a re-analysis of the deposited data

Results flagged for a closer look

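For 13 of the 36 genes the change after 10 Gy differed between HCT116 and MCF10A by a test of the difference itself (edgeR quasi-likelihood test of the interaction, HCT116 minus MCF10A, log2 scale, Benjamini-Hochberg adjusted). These are 36.1% of the members, about the 37.3% of all tested genes that passed. Higher in HCT116 were TDG (0.77), PMS2 (0.71), MSH3 (0.69), XPA (0.59), MGMT (0.52), APEX1 (0.44), NEIL2 (0.43), UNG (0.40), XRCC5 (0.31) and PRKDC (0.20). Lower in HCT116 were XRCC1 (-0.54), MBD4 (-0.44) and XRCC6 (-0.16). Only 9 of the 13 calls held under every alternative. The calls of MGMT, XRCC1, MBD4 and XRCC6 were lost in 7, 7, 5 and 14 alternatives. TDG, PMS2 and MSH3 fell in each irradiated MCF10A library and rose in each irradiated HCT116 library relative to every NIR library of the same line. Groups of 3 libraries were not searched for single outlying libraries.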

How the results depend on the processing

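Of the 144 calls on members in the 3 irradiation responses, both line comparisons and the response difference between the lines, 113 held under every alternative and 31 were lost in at least 1. The difference between the lines moved most. It called 10 members higher and 3 lower, but 16 higher and 0 lower with no filter on low counts, 16 higher and 0 lower in 1 fit over all 18 libraries, and 16 higher and 1 lower without mitochondrial and the 10 most abundant genes; the cause was not tested. Leaving out 1 library gave 9 to 15 higher and 0 to 3 lower there, and 5 to 9 members called higher in the mixed irradiation response, with 5 without Mixed NIR replicate 1. Between irradiated mixed and HCT116 cultures, with no member called, 1 was called higher with no filter (POLQ), and leaving out 1 library gave 0 to 1 higher and 0 to 1 lower. The mixed MSH3 change turned to -0.064 without NIR replicate 2 and -0.071 without IR replicate 3, within -0.071 to 0.15 over the libraries left out. In HCT116 against MCF10A without irradiation, ERCC3 turned to 0.031 and 0.027 and PMS2 to 0.088 and 0.085 with upper-quartile factors and library size alone; the median of all genes rose with these. With the replicate number as a block, though the numbers did not pair the samples, 2 members were called higher between irradiated mixed and HCT116 cultures (POLQ 0.22, PRKDC 0.094), 24 rather than 23 lower in MCF10A after irradiation, and 12 rather than 13 higher in HCT116 against MCF10A without irradiation, and 9 rather than 10 higher in the response difference. Depth limits MUTYH, the scarcest member per kilobase in MCF10A.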

Other observations

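Outside the 36 genes, several repair genes of the wider lists also responded differently in the lines, by the same edgeR test of the response difference (HCT116 minus MCF10A, log2 scale). Of 56 tested, 18 had a higher and 9 a lower value in HCT116, against 15.4% and 21.9% of all genes. PCNA, the sliding clamp of replication and repair, stood at 284, 283 and 269.7 CPM in NIR and 145, 147 and 152 CPM in IR libraries of MCF10A. In HCT116 PCNA stood at 274, 284 and 264 CPM and 279.8, 264 and 274 CPM, and the difference was 0.86 ± 0.067 (SE, adjusted p = 2.6e-10). PCNA thus dropped in every irradiated MCF10A library, while the HCT116 groups overlapped.

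ALKBH2, which reverses alkylated bases, differed by 1.10 ± 0.12 (SE, adjusted p = 1e-07), from means of 29.9 ± 0.157 to 15.6 ± 0.341 CPM in MCF10A and 26.3 ± 2.69 to 30.6 ± 0.821 CPM in HCT116. PMS1, a relative of PMS2, differed by 0.87 ± 0.11 (SE, adjusted p = 3.7e-07), from 57.1 ± 5.10 to 31.9 ± 2.16 CPM in MCF10A and 61.4 ± 3.99 to 65.0 ± 4.04 CPM in HCT116. XPC differed by 0.79 ± 0.11 (SE, adjusted p = 1.4e-06) and APEX2, a relative of APEX1, by 0.86 ± 0.14 (SE, adjusted p = 1.5e-05). On the lower side, RFC1, the large clamp loader subunit, differed by -0.64 ± 0.081 (SE, adjusted p = 5.5e-07).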
